A study of Mus musculus with 7 samples.

Results

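The 6 genes Kitl, Kit, Nppc, Npr2, Gja1 and Gja4 encode ligands, receptors and channel proteins through which granulosa cells and the oocyte communicate in the mouse ovary. They were chosen by name and function, 6 of 21755 protein-coding genes on the autosomes and chromosome X. Each locus was taken as the gene body in the GENCODE annotation of GRCm38 (mm10) with 50 kb on each side, and ERβ sites were sought in it. Ovary chromatin was immunoprecipitated and sequenced (ChIP-seq) with the antibody PPZ0506 against estrogen receptor beta (ERβ), a nuclear receptor that granulosa cells express. All 5 libraries came from C57BL/6J ovaries that express ERβ endogenously, 3 of them ChIP replicates and 2 of them inputs, that is, sheared chromatin sequenced without the antibody step. According to the methods of the study, each ChIP replicate was a pool of ovaries from several mice of mixed age, collected at no set stage of the estrous cycle. Nothing in the labels gives a treatment. ERβ knockout ovaries were also immunoprecipitated, and those samples were not analysed here. The signal came from whole ovary, so granulosa cells, oocytes and other cells could not be told apart, and ChIP-seq gives no expression level with which to check cell type markers.

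Kit ligand (Kitl) is made by granulosa cells and binds KIT, a receptor tyrosine kinase on the oocyte surface that acts in oocyte growth and survival. C-type natriuretic peptide, the product of Nppc, is secreted mainly by mural granulosa cells and activates NPR2, a receptor guanylyl cyclase of cumulus and mural granulosa cells. The cGMP that NPR2 makes passes through gap junctions into the oocyte, where it keeps cAMP high and meiosis arrested until ovulation. Gja1 encodes connexin 43, the main connexin of the junctions between granulosa cells, and Gja4 encodes connexin 37, which the oocyte needs for its junctions with the surrounding granulosa cells.

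A site was a 200-bp window in which at least 2 ChIP replicates had a normalised signal over 4 times that of the averaged inputs, and where the averaged input fell under its genome mean of 0.368 that mean was used instead. Windows were moved in steps of 10 bp, and windows whose centres lay within 200 bp of each other counted as 1 site, represented by the window with the highest mean fold. By this rule 4 sites lay in the 6 loci, of 4869 in the genome. They lay in the loci of Npr2 (2 sites), Nppc (1 site) and Kit (1 site), while those of Kitl, Gja1 and Gja4 held none. Over all protein-coding loci built in the same way 27.5% held a site, and the 3 of 6 found here are read as a count beside that share. The folds at these sites are given as a description, because the rule itself uses the contrast of ChIP and input. The limma tests of 1-kb windows and promoters given further on use that contrast too.

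The sequences of the 4 windows are shown because they are what the antibody enriched, and because none of them held a close match to the estrogen response element (ERE). The ERE is the inverted repeat GGTCANNNTGACC, and its match was counted over the 10 fixed bases. Capitals mark the 13 bases closest to it in each window, and all are the plus strand of GRCm38, 5′ to 3′.
Npr2 promoter, chr4:43631321-43631520: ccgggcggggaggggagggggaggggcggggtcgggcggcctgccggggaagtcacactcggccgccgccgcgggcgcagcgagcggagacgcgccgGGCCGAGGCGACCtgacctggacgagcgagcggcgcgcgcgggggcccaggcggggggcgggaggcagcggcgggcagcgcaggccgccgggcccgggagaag
Npr2 locus, intron of Tmem8b, chr4:43681581-43681780: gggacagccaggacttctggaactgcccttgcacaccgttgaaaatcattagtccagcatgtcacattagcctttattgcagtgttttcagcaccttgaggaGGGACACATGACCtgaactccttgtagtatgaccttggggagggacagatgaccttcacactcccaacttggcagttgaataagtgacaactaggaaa
Nppc locus, intron of Dis3l2, chr1:86719441-86719640: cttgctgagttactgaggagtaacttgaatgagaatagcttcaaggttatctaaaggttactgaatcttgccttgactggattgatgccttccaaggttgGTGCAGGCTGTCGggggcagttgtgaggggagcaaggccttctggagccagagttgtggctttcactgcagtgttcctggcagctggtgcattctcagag
Kit locus, downstream of Kit, chr5:75689771-75689970: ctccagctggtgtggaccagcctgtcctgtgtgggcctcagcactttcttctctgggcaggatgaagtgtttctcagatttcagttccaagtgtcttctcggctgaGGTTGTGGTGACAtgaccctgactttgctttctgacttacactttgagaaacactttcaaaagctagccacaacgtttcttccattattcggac

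Npr2, the receptor gene of the natriuretic pair (chr4:43631935-43651244, plus strand), had the strongest ERβ site of the 6 loci. Its signal in the 200-bp window was 17.4, 16.01 and 28.6 in ChIP replicates 1, 2 and 3, against 0.725 and 0.707 in Inputs 1 and 2. The lowest ChIP library was far above the higher input, and replicate 3 was the highest of the 3. The fold over input was 24.3, 22.3 and 39.99, with a mean of 28.9 ± 9.66 (SD, n = 3). The centre of the window lay 514 bp upstream of the Npr2 transcription start site (TSS), inside the promoter (1 kb upstream to 100 bp downstream of the TSS) and outside the exons of Npr2. The annotation also places the start of a miRNA gene, Gm25262, 4 bp downstream of the centre. The chained windows of the site spanned 620 bp.

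Among the 4869 sites this one ranked 65th by mean fold, and among the 5979 protein-coding loci that held a site the Npr2 locus ranked 113th. In the promoters of all protein-coding genes, 177 of 21755 (0.814%) held the centre of a site, and Npr2 had the highest mean fold of those 177. The window was also unusual in its base content. Its GC content was 84.5%, against a median of 49.5% over all sites, and 1 of the 4869 sites had a higher one. The 17 sites with a GC content within 5 percentage points of it, itself included, had a median mean fold of 6.47. Both inputs were covered there at nearly the same level, with Input 1 at 1.03 times Input 2.

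The second site of the Npr2 locus was the weakest of the 4 and lay just inside the rule. Its signal was 2.12, 2.28 and 1.31 in ChIP replicates 1, 2 and 3, against 0.5 and 0.418 in the inputs. Replicates 1 and 2 passed the threshold, at 4.62-fold and 4.97-fold, and replicate 3 did not, at 2.85-fold. The window lay 49.7 kb downstream of the Npr2 TSS and 30.4 kb past the end of the gene, in an intron of Tmem8b, which encodes a transmembrane protein. The nearest TSS of any protein-coding gene was that of a Tmem8b transcript annotated as a processed transcript, not as protein-coding, 7.22 kb away. By mean fold it ranked 4321st of the 4869 sites.

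**Figure D1:**
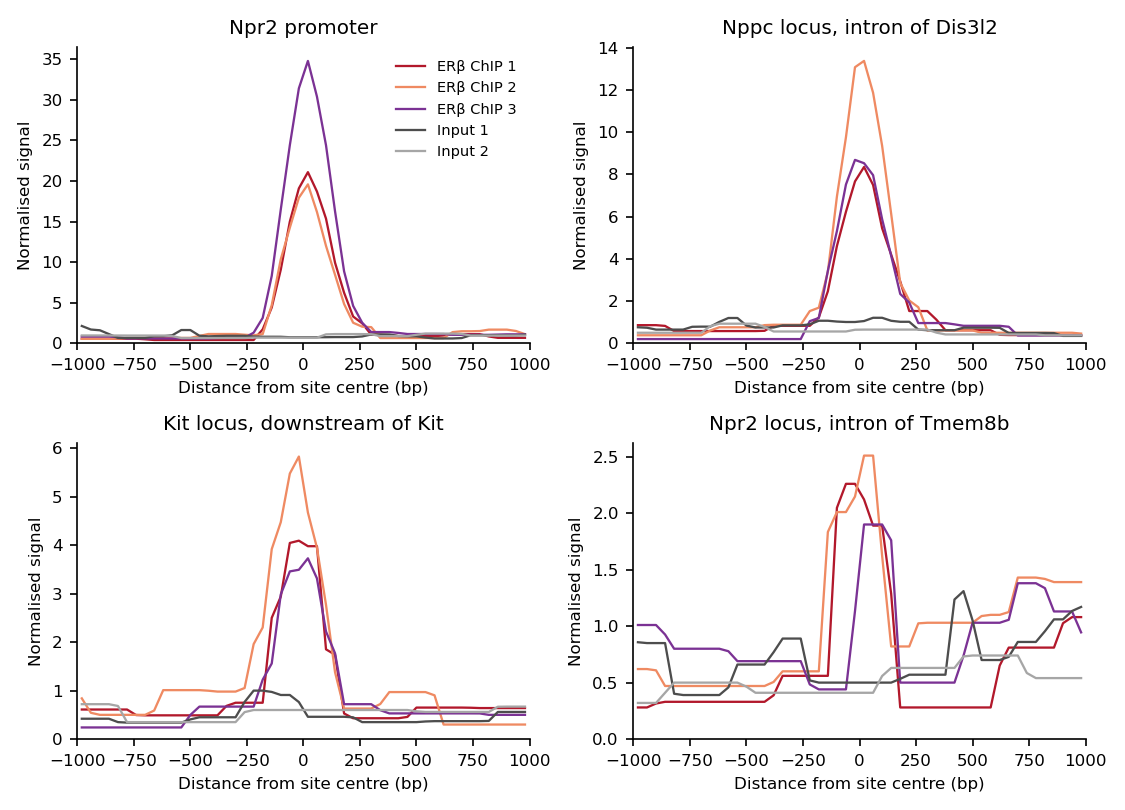
Normalised ChIP-seq signal (vertical axis, mean per 40 bp) against distance from the centre of each of the 4 sites (horizontal axis, bp) for the 3 ERβ ChIP replicates and 2 inputs, each panel with its own vertical scale. All 3 ChIP replicates rise to a single peak at the Npr2 promoter, the Nppc locus and the Kit locus, above both inputs, and at the Tmem8b intron the peak is low and uneven between replicates.

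Nppc, the gene of the ligand of NPR2 (chr1:86666291-86670571, minus strand), had a site at the far upstream edge of its locus and none near the gene. The signal was 7.08, 11.4 and 7.75 in ChIP replicates 1, 2 and 3, against 1.07 and 0.612 in the inputs. All 3 ChIP libraries were above both inputs, and replicate 2 was the highest. The fold was 8.43, 13.5 and 9.22, with a mean of 10.4 ± 2.76 (SD, n = 3), and the site ranked 964th of 4869. The inputs differed more here than at the other sites, with Input 1 at 1.75 times Input 2. Against Input 1 alone the mean fold was 8.18 and against Input 2 alone 14.3. The centre lay 49.0 kb upstream of the Nppc TSS, in the first intron of Dis3l2, which encodes a 3′ to 5′ exoribonuclease, and 15.7 kb from the TSS of that gene. Nearest by distance was therefore Dis3l2, not Nppc. A further site lay beyond the 50 kb, 87.7 kb upstream of Nppc, with a mean fold of 9.66 ± 3.27 (SD, n = 3).

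Kit, the receptor gene of the Kit ligand pair (chr5:75574916-75656722, plus strand), had a weaker site downstream of the gene. ChIP replicates 1, 2 and 3 had signals of 3.71, 4.77 and 3.37 there, against 0.656 and 0.6 in Inputs 1 and 2, again without overlap. The fold was 5.91, 7.59 and 5.36, with a mean of 6.29 ± 1.16 (SD, n = 3). With a rank of 2389 of 4869, this site lay near the median of all sites, which was 6.22-fold. It was intergenic, 115 kb downstream of the Kit TSS and 33.1 kb past the end of the gene. The nearest TSS of any protein-coding gene was that of a Kit transcript, 40.7 kb away. No other protein-coding TSS lay in the Kit locus.

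Kitl, the ligand gene of that pair (chr10:100015630-100100416, plus strand), had no site by the rule, and no replicate was over 4-fold in the window with its highest mean fold. ChIP replicates 1, 2 and 3 had signals of 1.45, 0.720 and 0.499 in that window, against 0.644 and 0.0533 in Inputs 1 and 2. Replicate 1 was at 3.95-fold while replicates 2 and 3 were at 1.96-fold and 1.35-fold, and Input 2 was nearly empty there. The ChIP libraries overlapped Input 1. Shifted by 10 bp, a window reached 4.09-fold in replicate 1 alone, which would make it a site if a single replicate sufficed. The highest fold of replicate 1 in any window of the locus was 4.35. In the window with the highest mean fold, the averaged input fell under its genome mean, so that mean set the folds. The window lay beside a stretch with little or no signal in ChIP and inputs. The nearest site of any kind lay 4679 kb from the Kitl TSS. The median distance from a protein-coding TSS to the nearest site was 172 kb, and 47 of the 21755 genes had a longer distance than Kitl.

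Both connexin genes lacked a site within 50 kb. In the Gja1 locus (gene at chr10:56377330-56402513, plus strand) ChIP replicates 1, 2 and 3 had signals of 1.16, 0.370 and 1 in the highest window, against 0.440 and 0.330 in Inputs 1 and 2. Its mean fold was 2.19 ± 1.09 (SD, n = 3), and replicate 2 lay between the inputs. In the Gja4 locus (gene at chr4:127311421-127314039, minus strand) the corresponding signals were 1.03, 0.540 and 0.318 against 0.311 and 0.426, and ChIP and input overlapped. The mean fold there was 1.71 ± 0.989 (SD, n = 3), the lowest of the 6 loci.

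The limit of 50 kb decided the count for the connexins. With 100 kb on each side of the gene body, the Gja1 locus held 3 sites, all downstream of the gene and all with Gja1 as the nearest protein-coding gene. The closest, chr10:56452871-56453070, lay 75.6 kb from the TSS and just past the edge of the locus, with folds of 5.002, 6.95 and 5.57 in ChIP replicates 1, 2 and 3. The strongest, chr10:56489501-56489700, lay 112 kb from the TSS, with signals of 10.2, 14.7 and 19.0 in the ChIP replicates against 0.834 and 0.530 in the inputs. Its folds were 15.0, 21.6 and 27.8, with a mean of 21.5 ± 6.39 (SD, n = 3). Gja4 gained 1 site at that width, 61.8 kb downstream of its TSS, with a mean fold of 7.96 ± 0.961 (SD, n = 3). Kitl still had none. With 10 kb on each side, the promoter site of Npr2 was the only site left in the 6 loci. The share of all protein-coding loci with a site is not given at 100 kb or 10 kb, so these counts stand without it.

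**Figure D2:**
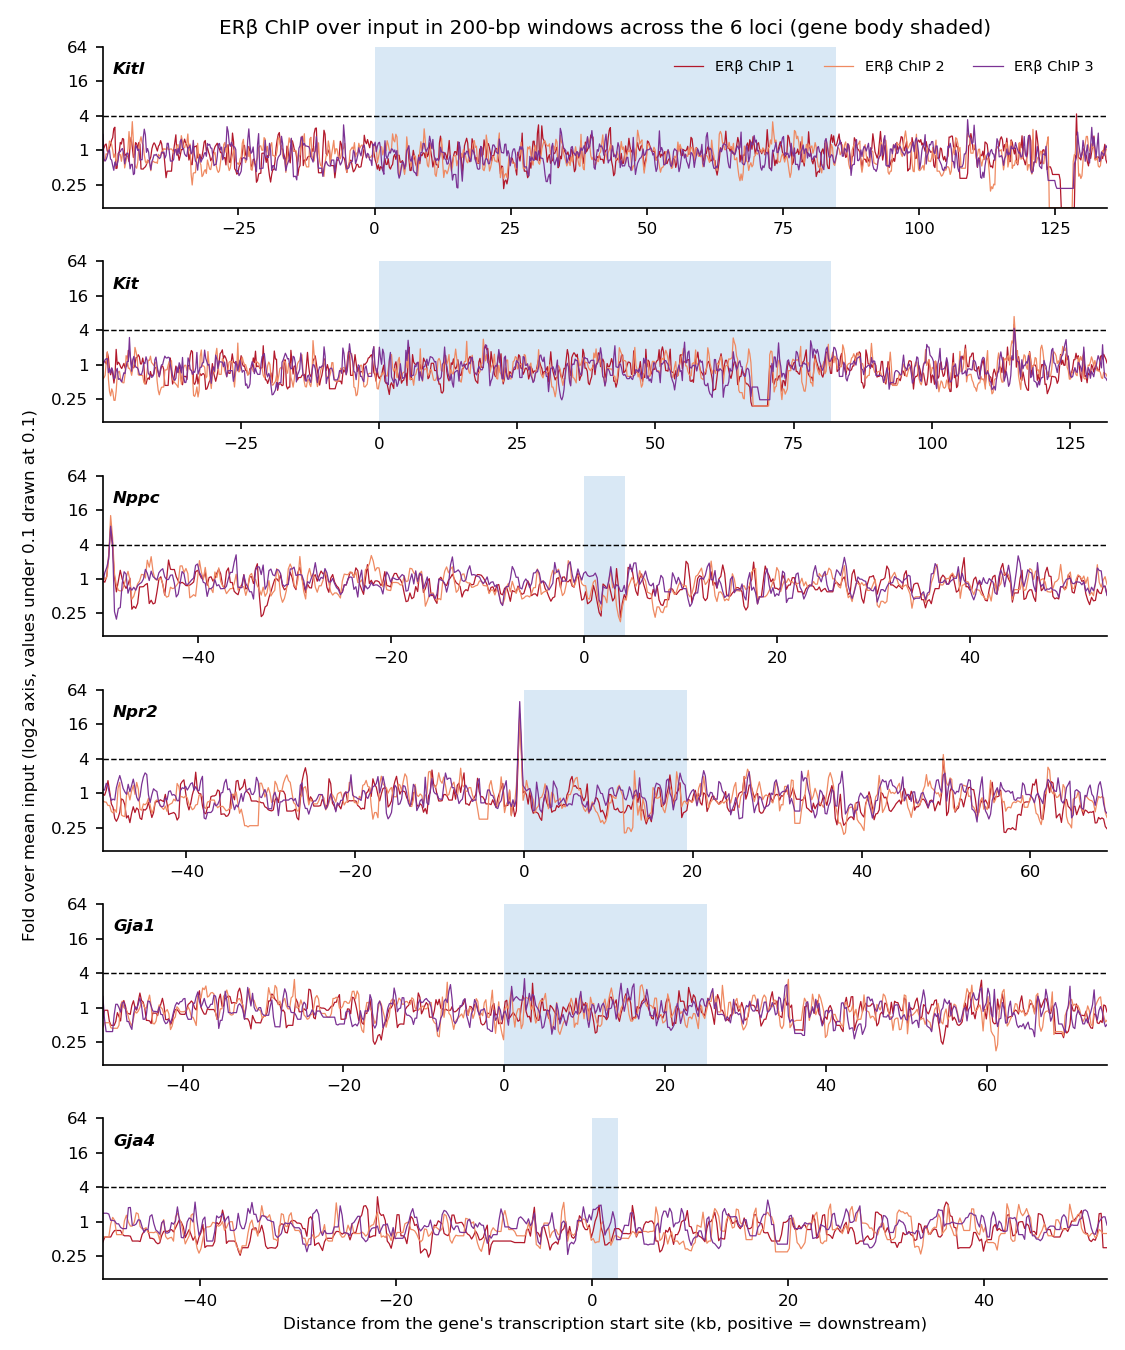
Fold of each ERβ ChIP replicate over the mean input (vertical axis, log2 scale) in consecutive 200-bp windows across the 6 loci, against the distance from the TSS (horizontal axis, kb, positive downstream), with the gene body shaded and a dashed line at 4-fold. The Npr2 promoter stands out at 514 bp upstream of the TSS, the Nppc site sits 49.0 kb upstream and the Kit site 115 kb downstream, and the lines of Gja1 and Gja4 stay under 4-fold throughout.

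The order of the highest windows was Npr2, Nppc, Kit, Kitl, Gja1 and Gja4. Npr2 and Nppc were separated in every replicate, since the lowest value of Npr2 (22.3-fold) was above the highest of Nppc (13.5-fold). Nppc was also above Kit in every replicate, 8.43-fold being its lowest and 7.59-fold the highest of Kit. Kit was above Kitl, whose highest replicate was 3.95-fold. Kitl, Gja1 and Gja4 overlapped each other and had no order beyond their spread. These differences between loci are given as a description, because each window was picked as the highest of its locus.

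**Figure D3:**
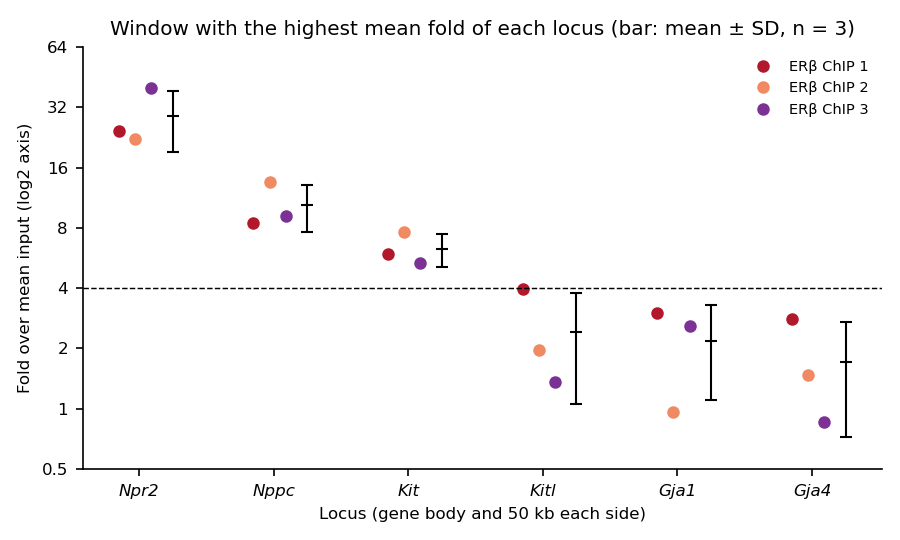
Fold over the mean input (vertical axis, log2 scale) in the 200-bp window with the highest mean fold of each locus, with a point for each of the 3 ERβ ChIP replicates and a bar for the mean ± SD, and a dashed line at 4-fold. The points of Npr2, Nppc and Kit do not overlap one another, and those of Kitl, Gja1 and Gja4 lie under 4-fold and overlap.

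The sites were next called from a pair of ChIP replicates and read in the third, which had no part in that call, although the inputs were shared. The Npr2 promoter site was found each time, with 24.3-fold, 22.3-fold and 39.99-fold in replicates 1, 2 and 3 when each was the one left out. The Nppc site gave 8.37-fold, 13.5-fold and 9.22-fold, and the Kit site 5.91-fold, 7.499-fold and 5.36-fold. The Tmem8b intron site was called only when replicate 3 was left out, in which it had 2.72-fold. Over the whole genome the median fold in the replicate left out was 5.71, 7.93 and 7.502, and the share of sites that passed 4-fold in it was 74.4%, 93.5% and 87.6%.

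The tracks carried a difference in their names, with a prefix on ChIP replicates 2 and 3 and Input 2 and none on ChIP replicate 1 and Input 1. Set against the input of its own prefix, ChIP replicate 1 had 24.0-fold at the Npr2 promoter, and replicates 2 and 3 had 22.6-fold and 40.5-fold. At the Nppc site the corresponding values were 6.63, 18.6 and 12.7, and at the Kit site 5.66, 7.94 and 5.61. The Tmem8b intron site had 4.24-fold, 5.46-fold and 3.13-fold. The same replicates were over 4-fold as with the pooled inputs.

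Whether the signal in the 6 loci differed from input beyond the spread between libraries was tested in 1-kb windows over the whole genome, on log2(signal + 0.5) with limma and Benjamini-Hochberg adjustment. Of 2430630 windows, 2326 (0.0957%) were higher and 65 (0.00267%) lower in ChIP at an adjusted p under 0.05. In the 6 loci 814 windows were tested, of which 3 were higher and 0 lower. At an unadjusted p under 0.05, 41 of the 814 windows (5.04%) were lower and 10 (1.23%) higher, beside 80924 (3.33%) lower and 46252 (1.90%) higher in the genome. The lower windows were 11 of 119 in the Npr2 locus, 10 of 181 in that of Kitl, 7 of 103 in that of Gja4, 5 of 105 in that of Nppc, 4 of 180 in that of Kit and 4 of 126 in that of Gja1. The 3 higher windows were those holding the Npr2 promoter, Nppc and Kit sites. Since the same contrast defined the sites, the test adds no independent evidence. It adds the spread between libraries, which limma draws towards a trend over all windows.

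In the window at the Npr2 promoter, ChIP replicates 1, 2 and 3 had signals of 5.41, 5.03 and 8.76, against 0.818 and 0.839 for Inputs 1 and 2. This window was higher in ChIP by 2.34 ± 0.26 on the log2 scale (SE, limma adjusted p = 4.44e-07). At the Nppc site the window had 2.56, 3.70 and 2.58 against 0.887 and 0.611. The difference was 1.46 ± 0.22 (SE, limma adjusted p = 0.000157). At the Kit site it had 1.36, 1.96 and 1.19 against 0.541 and 0.475, again with every ChIP library above both inputs. The difference was 0.98 ± 0.19 (SE, limma adjusted p = 0.00762). The Kit call was lost without ChIP replicate 2 (limma adjusted p = 0.194), without Input 1 (0.176) and without Input 2 (0.6002), and the other 2 calls held without any single library.

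Promoters were tested in the same way, 21061 of them. At an adjusted p under 0.05, 16 (0.076%) were higher in ChIP, and Npr2 was among them as the only one of the 6 genes. Its promoter signal was 4.97, 4.65 and 8.03 in the ChIP replicates against 0.818 and 0.836 in the inputs. The difference was 2.23 ± 0.47 on the log2 scale (SE, limma adjusted p = 0.00712), the fifth highest of all promoters. The call was lost without ChIP replicate 2 (limma adjusted p = 0.244), without Input 1 (1.00) and without Input 2 (0.823). It was also lost with a pseudocount of 1 (0.109) and with the track-name prefix as a term (0.248). The other 5 promoters were not called. Their log2 differences were 0.04 for Kitl, -0.09 for Gja4, -0.09 for Nppc, -0.15 for Kit and -0.30 for Gja1, beside a median of -0.13 over all promoters tested.

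Outside the sites, the mean ChIP share of the loci was not above that of the inputs. The sites were removed because ChIP exceeded input there. In the Npr2, Nppc and Kit loci this removal itself lowers the ChIP share, so the rule partly fixes their values and tests. The Kitl, Gja1 and Gja4 loci had no site to remove. The share of a library's signal in the Kitl locus in ppm was 88.3, 85.0 and 85.1 for ChIP replicates 1, 2 and 3, against 97.3 and 90.3 for Inputs 1 and 2, with every ChIP library below both inputs. The Npr2 locus without its sites had 48.2, 55.5 and 61.9 in ChIP against 63.9 and 61.1 in the inputs, and replicate 3 lay between them. The ratio of the mean ChIP share to the mean input share was 0.918 for Kitl, 0.921 for Kit, 0.882 for Nppc, 0.883 for Npr2, 0.961 for Gja1 and 0.876 for Gja4. One-sided exact permutation tests gave p from 0.9 to 1 for a higher share in ChIP. For a lower share they gave 0.1 for Kitl, Kit and Nppc and 0.2 for Npr2, Gja1 and Gja4, and all 6 were 0.2 after Benjamini-Hochberg adjustment. A design of 3 against 2 libraries cannot give p below 0.1. Over whole loci, with the sites included, the ratio was 0.918 for Kitl, 0.933 for Kit, 0.927 for Nppc, 0.986 for Npr2, 0.961 for Gja1 and 0.876 for Gja4. Of 21577 protein-coding loci with signal in every library, taken whole, 73.2% had a lower mean share in ChIP, with a median ratio of 0.934.

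**Figure D4:**
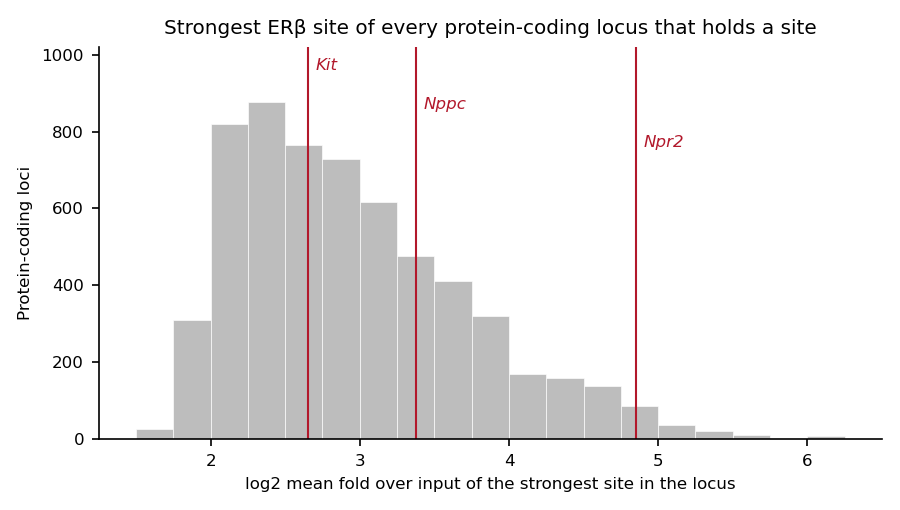
Number of protein-coding loci (vertical axis) by the log2 mean fold over input of their strongest site (horizontal axis), for the 5979 loci that held a site, with red lines at Kit, Nppc and Npr2. The Npr2 line stands in the upper tail, at rank 113, while Kit lies near the middle of the distribution, at rank 3497.

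The ERE was then searched for in the windows and across the loci. In the Npr2 promoter, Kit and Tmem8b intron windows the closest match had 3 mismatches in the 10 fixed bases, and in the Nppc window it had 4. Over all sites 67.9% held a match with at most 2 mismatches, against 6.68% of all 200-bp windows of the genome, and 1562 of the 4869 sites (32.1%), the 4 shown here among them, held none. Of the 64 sites with a higher mean fold than the Npr2 promoter, 54 held such a match. Among the 17 sites of like GC content 6 did. A single arm of the element, GGTCA on either strand, lay in 3 of the 4 windows outside the capitals, once in the Npr2 promoter and once in the Kit window, in both right after the last capital. The Tmem8b intron window had it 3 times, once as part of the capitals, and the Nppc window lacked it. That arm alone was found in 84.8% of all sites and 26.5% of all genome windows.

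Single matches to 2 other motifs were found in these windows. The NR5A motif (TCAAGGTCA or CCAAGGTCA), bound by SF-1 and LRH-1, 2 nuclear receptors of granulosa cells, occurred once, in the Tmem8b intron window, where it includes 1 of the 3 arms counted above. It was found in 7.15% of all sites and 0.693% of all genome windows. These shares count exact matches only. With motifs derived from its own bound sequences, the study reports NR5A about as often as the ERE, so the measures are unlike. A GATA motif (AGATAA or TGATAA) occurred once, in the Nppc window, and in 29.7% of all sites and 24.1% of all windows. The AP-1 (TGACTCA or TGAGTCA) and FOXO (TGTTTAC) motifs, searched on both strands as the others were, did not occur in the 4 windows. They were found in 6.63% and 4.76% of all sites and in 3.11% and 2.98% of all genome windows.

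The loci did contain EREs close to the consensus, and none of them was a site. With at most 1 mismatch there were 30 in the 6 loci, of which 7 lay in each of the Kit, Gja1 and Gja4 loci, 4 in that of Npr2, 3 in that of Kitl and 2 in that of Nppc. The mean fold in the 200 bp around them ranged from 0.543 to 1.60, with a median of 1.01, and the highest value in any single ChIP replicate was 2.49. In the whole genome 2.32% of the 72460 elements with at most 1 mismatch, and 13.1% of the 2357 without a mismatch, lay in a site. The 2 elements without a mismatch are shown with the 8 bases on each side, capitals marking the ERE on the plus strand.
Nppc locus, chr1:86673646-86673658: aaaaagagGGTCAGAGTGACCtctttggg
Gja1 locus, chr10:56399465-56399477: gggaagctGGTCATAGTGACCcatgcatg

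The first of them lay 3.08 kb upstream of the Nppc TSS, between genes, where ChIP replicates 1, 2 and 3 had signals of 0.240, 0.634 and 0.818, against 0.372 and 0.6 for Inputs 1 and 2. The second lay in the untranslated part of a Gja1 exon, 22.1 kb downstream of the TSS, with 0.535, 0.350 and 0.310 against 0.471 and 0.400. In both, ChIP and input overlapped, and the mean folds were 1.16 ± 0.607 and 0.915 ± 0.276 (SD, n = 3). Among the RefSeq promoters of the 6 genes (250 bases before to 50 after the start, GRCm38.p6), all 6 of which were matched, that of Kitl alone held an ERE match with at most 2 mismatches, as did 11.1% of all 32851 promoters in that table. These promoter windows do not include the centre of the Npr2 site.

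**Figure D5:**
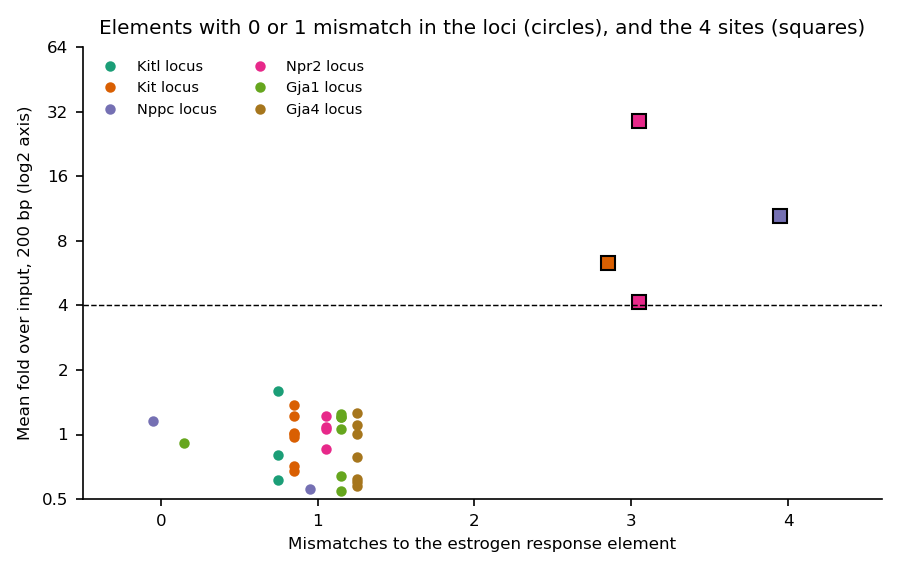
Mean fold over input in 200 bp (vertical axis, log2 scale) against the number of mismatches to the ERE (horizontal axis), for the 30 elements with 0 or 1 mismatch in the 6 loci (circles) and for the closest element of each of the 4 sites (squares), coloured by locus, with a dashed line at 4-fold. The 30 elements all lie under 2-fold, and the 4 sites have 3 or 4 mismatches.

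Genes that act with these pathways were described in 3 lists by the same rule, beside the 27.5% of all protein-coding loci that held a site. Of 10 genes of natriuretic peptide and cGMP signalling, 5 had a site in their locus. The strongest were those of Nppb, which encodes B-type natriuretic peptide, at 13.9-fold, of Impdh1, an enzyme of guanine nucleotide synthesis, at 6.79-fold, and of Pde3a, the phosphodiesterase that breaks down cAMP in the oocyte, at 6.53-fold. Nppa, Npr3, Prkg2, Pde5a and Impdh2 had none. Like that of Nppc, the Nppb site lay at the upstream edge of its locus, at -48.9 kb from the TSS.

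Of 10 genes that act downstream of KIT, 8 had a site. The strongest lay in the loci of Pik3cd and Pik3r1, subunits of phosphoinositide 3-kinase, at 14.7-fold and 14.3-fold, and of Stat3, a transcription factor, at 13.1-fold. That of Pik3cd was within the gene, 38.6 kb downstream of its TSS. Those of Pik3r1 and Stat3 were past the gene ends, 116 kb and 68.7 kb downstream of the TSS. Of 17 further connexin and gap junction genes 4 had a site. They were Gjd3, with 46.7 ± 7.58-fold (SD, n = 3) at 27.4 kb downstream of its TSS, Gjb1 with 8.14-fold, Gjc1 with 7.17-fold and Tjp1, the gene of a junction scaffold protein, with 4.41-fold. The sites of Gjd3, Gjb1 and Gjc1 lay past the gene ends, and that of Tjp1 within the gene. Which gene lay nearest to a site was not determined for the 3 lists. The median locus was 142 kb long in the natriuretic list, 170 kb in the Kit list and 108 kb in the connexin list, against 117 kb over all protein-coding genes, and the counts were not adjusted for length.

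By the 3 folds of its strongest site, the protein-coding loci most like Npr2 were Alox5ap, Hmgb1 and Uspl1 on chromosome 5. Their loci overlap and share a single site, with 21.5-fold, 24.9-fold and 35.3-fold in ChIP replicates 1, 2 and 3. The Euclidean distance from Npr2 over the 3 log2 folds was 0.298. That site lay at -35.4 kb from the TSS of Alox5ap, -44.8 kb from that of Hmgb1 and 45.0 kb from that of Uspl1, whereas the Npr2 site lay in the promoter.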

How the data were processed

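According to the methods of the study and the processing notes of its submitters, the authors aligned single reads with STAR to GRCm38 (mm10), with spliced alignment switched off, kept uniquely mapped reads and worked with HOMER. The versions, the fragment length and the treatment of duplicates are not given in the sources used here. The deposited tracks hold signal (coverage) of single libraries, which the authors normalised to a common total of 928 to 948 M (signal times length), averaged over segments of variable length and rounded to 2 decimals. The median segment was from 481 to 519 bp, except for Input 1 with 269 bp. Tags cannot be read back, so the depth is unknown from the files, and the spread between libraries alone sets the precision. Replicates were pools of mice according to the methods, whereas the labels do not say how the samples relate, so p-values refer to these libraries only. In limma the spread of each window or promoter is drawn towards a trend over all of them. Its p-values therefore do not rest on the spread of that window or promoter alone.

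Tracks were stored in 10-bp bins with Python 3.11.15 and numpy 2.4.6. The autosomes and chromosome X were used, which held 99.7% to 99.8% of the signal of each library. Genome means were taken over sequenced bases. Sites followed the rule given in the text, and a site belonged to a locus when its centre lay in it. Called singly, each ChIP library gave from 4683 to 7220 sites over 4-fold, and each input over the other gave 69 and 245. Windows of 1 kb and promoters with a mean signal of at least 0.1 were tested, 3 ChIP libraries against 2 inputs, with limma 3.58.1 (R 4.3.3) using lmFit and a trended eBayes. The values tested were log2(signal + 0.5), on which low signals differ less than their ratio. A test on tag counts, as in the study, could not be run on averaged tracks. The script was tested on simulated data. Shares of signal were compared with one-sided exact permutation tests. Motifs were matched on both strands, the ERE with mismatches and the others without. Gene models were those of GENCODE release M21, and promoter sequences were from RefSeq.

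The 6 genes, the lists and the tests were chosen with earlier results of these data known. All 6 genes, every site of their loci, the protein-coding genes nearest to those sites, the 3 loci most like the strongest one and the 3 highest genes of each list were named. Tjp1, the list genes without a site and the sites beyond 50 kb were named after their values were seen. Alternatives covered the windows, fold, floor, flank, inputs, pseudocount, filter, GC content, replicate block, track-name prefix and each library left out.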

Additional observations from a re-analysis of the deposited data

How the results depend on the processing

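The counts of sites and of loci with a site (main values 4 and 3) changed by over 1.5 times under 3 alternatives. Over 8-fold left 2 sites, a flank of 10 kb left 1 site in 1 locus, and a flank of 100 kb gave 9 sites in 5 loci. The share of all protein-coding loci with a site, 27.5% by the main rule, is not given for the alternatives. Their counts of loci therefore cannot be read against it. Leaving out single libraries gave from 3 to 4 sites and 3 loci each time. Counting windows over 4-fold in a single ChIP replicate, an alternative added after seeing the data, gave 5 sites in 4 loci. In 400 bp around the same centres the mean fold was 18.5 for Npr2, 7.35 for Nppc and 4.47 for Kit.

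The 1-kb windows higher in ChIP (2326) numbered 3698 with GC content removed and from 1008 to 2541 with each library left out, lowest without Input 2. The lower ones (65) numbered 30 with a pseudocount of 0.1, 42 without the filter, 120 with the track-name prefix as a term and from 10 to 683 with each library left out, the extremes being without ChIP replicates 2 and 3. In the 6 loci the count of higher windows stayed at 3, or at 2 without ChIP replicate 2 or either input. Promoters higher in ChIP (16) numbered 32 with a pseudocount of 0.1, 1 with a pseudocount of 1, 111 with GC content removed, 4 with the prefix and from 0 to 199 with each library left out. Promoters lower in ChIP (5) numbered 3, 1, 93, 1 and from 0 to 2854 in the same order, and 2 without the filter. The Npr2 promoter kept its direction in all 11 alternatives and lost its call in 5 of them. The cause of these changes was not tested.

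ChIP and Input share replicate numbers 1 and 2, but nothing in the labels ties them. Same-numbered libraries did not deviate together in 1-kb windows (r across windows 0.036 and -0.011). With the replicate block, 3426 windows were higher and 3207 lower, of which 3 and 5 lay in the 6 loci, and 94 promoters were higher and 1085 lower. ChIP replicate 3 has no input of its number, so in the block it adds nothing to the ChIP difference. The log2 differences were therefore those found without ChIP replicate 3, as at the Npr2 promoter (1.999 in both), and these settings are not separate alternatives. The study reports the number of aligned reads of its ChIP samples, but depth cannot be read from the tracks themselves. A locus without a site is one in which none was detectable in these tracks.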
